A study of Homo sapiens with 6 samples.

Results

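The pooled comparison of both knockdowns with the control asked what knockdown of CSA and knockdown of CSB had in common. All 6 libraries of the series entered it: 4 knockdown libraries, 2 for CSA and 2 for CSB, taken as 1 group, and 2 control libraries. The cells were SH-SY5Y, a human neuroblastoma line of sympathetic neuroblast character. Lentivirus delivered 1 of 3 short hairpin RNAs (against CSA, against CSB, or the control), and cells were selected with puromycin, and then kept in culture for 2 to 3 weeks. All 3 groups therefore shared the virus and the drug. The labels' genotype field calls the hairpin cells mutants and the control wild type; they are called knockdowns and control here. The sources used here do not say whether duplicates are separate transductions, so p-values reflect only the spread among these libraries, and that spread may be technical. Because both knockdowns were set against the same 2 libraries of 1 control hairpin, a state particular to those control cells cannot be told apart from an effect shared by both knockdowns.

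CSA (gene ERCC8) and CSB (gene ERCC6) act together in transcription-coupled repair, in which a stalled RNA polymerase II marks DNA damage in a transcribed strand. CSB is an ATPase of the SWI/SNF family that binds the stalled polymerase, and CSA is the substrate receptor of a CUL4 ubiquitin ligase that is brought in by CSB. Both have also been linked to transcription outside repair. Loss of either causes Cockayne syndrome, in which neurodegeneration is prominent.

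Values are scaled counts, that is, reads per gene divided by 1 size factor per library, as deposited. They are not per gene length, so levels are compared between libraries and not between genes. Reads assigned to genes ran from 19368272 to 26758162 per library, and mitochondrially encoded genes took 5.73% to 6.51% of the signal. Of 32575 genes listed, 18321 were tested, those whose mean reached 10 scaled counts in any of the 3 groups. The gene nearest above this limit was MTND5P28 with a highest group mean of 10.04, and the nearest below was LINC01132 with 9.99. Noradrenergic identity genes were abundant in all 6 libraries, with HAND2 at 25082 to 30682. TH, the rate-limiting enzyme of catecholamine synthesis, was an exception at 2.86 to 20.3.

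The targeted genes were measured first, as a check of the labels. ERCC8 stood at 219 and 217 in the controls, 61.8 and 57.2 in the CSA pair and 186 and 215 in the CSB pair of libraries. ERCC8 was thus low only in the CSA knockdown libraries, with a log2 difference from control of -1.86 ± 0.13 there and -0.12 ± 0.13 in the CSB knockdown. Control libraries held ERCC6 at 615 and 593, CSA knockdown libraries at 618 and 611, and CSB knockdown libraries at 258 and 302. ERCC6 was low in both CSB knockdown libraries alone, with a log2 difference from control of -1.11 ± 0.09 there and 0.03 ± 0.09 in the CSA knockdown. Both knockdowns were partial and unequal at the RNA level. ERCC8 was at 0.28 of control in the CSA knockdown, and ERCC6 at 0.46 of control in the CSB knockdown. Differences are printed as value ± standard error (SE) on the log2 scale throughout.

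A gene was first described by position alone, asking that all 4 knockdown libraries lie on one side of both controls. Of the tested genes, 3073 (16.8%) had all 4 knockdown libraries above both controls and 2200 (12%) had all 4 below. A further 3896 genes (21.3%) were split, with both libraries of one knockdown above and both of the other below the controls. In 1437 of these (7.84%) the CSA knockdown was the higher one, and in 2459 (13.4%) the CSB knockdown was.

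Changes were then tested in 2 ways. The 2-group fit (limma with a mean-variance trend on log2 of the scaled count + 1) compared 4 libraries with 2, so the difference between the CSA and the CSB knockdown counted as error. It also treats the 4 libraries as independent, although they come in 2 pairs. With a Benjamini-Hochberg adjusted p below 0.05 and all 4 libraries on one side, it called 3 genes higher (0.0164% of those tested) and 2 lower (0.0109%), 5 in all (0.0273%), while 2518 genes (13.7%) had an unadjusted p below 0.05. The 3-group fit, also limma, kept the CSA and CSB knockdowns apart, took the mean of both changes and used the spread between duplicates as error. With the same threshold and the same requirement of one side, it called 2178 genes higher (11.9%) and 1629 lower (8.89%). The typical standard error was 0.18 on the log2 scale in the first fit and 0.08 in the second. Higher calls made up 57.2% of the 3-group calls with the deposited scaling, but 45.3% with TMM scaling (1682 higher and 2031 lower), 46.9% with upper-quartile scaling and 48.8% with equal totals. The balance of higher and lower calls therefore depended on the scaling. The median log2 change over all tested genes was 0.04 as deposited and 0.00 with TMM.

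Most of the changes called by the 3-group fit were small. The median size of a 3-group call was 0.33 on the log2 scale. This fit tests the mean of both changes, so a call does not require a detected change in each knockdown. ERCC8, for example, was called lower, although its change in the CSB knockdown was -0.12 ± 0.13 (3-group limma fit, adjusted p = 0.498). Among named genes, the CSB change also did not pass by itself in EEF1A1, ACTG1, PTMA, NDUFA10, CRELD2, SHISA9, CHAC1 and TRAF1. The CSA change did not pass by itself in VEGFA, HSPA4L, RPL8, HNRNPA2B1 and POLR2L, and neither change did in ELL. At least 2-fold in the mean of the knockdowns were 132 of the higher and 110 of the lower calls. Where each knockdown by itself had to differ at least 2-fold, 65 higher and 47 lower genes were left. Of the 3807 genes called, 1766 (46.4%) also differed between the CSB and the CSA knockdown at an adjusted p below 0.05 in the same fit, a share close to the 48.5% of all tested genes. In what follows, rose and fell mean called by the 3-group fit unless the 2-group fit is named, every standard error is from the named limma fit, and every adjusted p is its Benjamini-Hochberg value over all tested genes.

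The 5 protein-coding genes that passed the stricter 2-group fit each had an adjusted p of 0.0332, and in each the CSA and the CSB knockdown lay close together. Closeness of the knockdowns and distance from the controls follow from the selection, since this fit counts the difference between the knockdowns as error. EIF1AX and IL32 fell, and TRIM67, NCAM2 and KIAA1683 rose. All are given in hg38 coordinates. The calls rest on all 6 libraries: without any 1 of them, no gene was called, and the adjusted p of these 5 genes ran from 0.143 to 0.807. The next gene in order, NHSL2, had an adjusted p of 0.0577.

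EIF1AX encodes the translation initiation factor eIF1A, which helps the small ribosomal subunit scan for a start codon, and lies on the minus strand of chromosome X (20124518 to 20141844). EIF1AX was measured at 3172 and 3012 without knockdown, at 1632 and 1614 after CSA knockdown and at 1708 and 1657 after CSB knockdown. The 4 knockdown values lay close together and far below the lower control. The 2-group log2 difference was -0.90 ± 0.07, and the CSB minus CSA difference was 0.05 ± 0.06 (3-group limma fit, adjusted p = 0.468).

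IL32 encodes an inflammatory cytokine and lies on the plus strand of chromosome 16 (3065297 to 3082192). For IL32 the scaled counts were 162 and 133 (controls), 30.3 and 24.8 (CSA knockdown) and 25.3 and 28.9 (CSB knockdown). No knockdown library came near the controls, and the pairs overlapped each other. This was a 2-group log2 difference of -2.39 ± 0.18, with a CSB minus CSA difference of -0.02 ± 0.22 (3-group limma fit, adjusted p = 0.951).

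TRIM67 encodes a ubiquitin ligase of the tripartite motif family that is expressed mainly in neurons, on the plus strand of chromosome 1 (231162112 to 231221556). TRIM67 gave 91.5 and 84.9 in the controls, against 269.9 and 278 with the CSA hairpin and 246 and 308 with the CSB hairpin. It was the largest of the 3 rises, with a 2-group log2 difference of 1.63 ± 0.13. NCAM2, a neural cell adhesion molecule, lies on the plus strand of chromosome 21 (20998315 to 21543329). NCAM2 stood at 152 and 164 in the controls, 359 and 384 in the CSA pair and 391 and 415 in the CSB pair of libraries. The 2-group difference was 1.29 ± 0.10 and all 4 knockdown libraries lay well above both controls. KIAA1683, on the minus strand of chromosome 19 (18257097 to 18274509), differed by 1.28 ± 0.10. Control libraries held KIAA1683 at 237 and 245, CSA knockdown libraries at 610.2 and 637, and CSB knockdown libraries at 546 and 563.

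**Figure D1:**
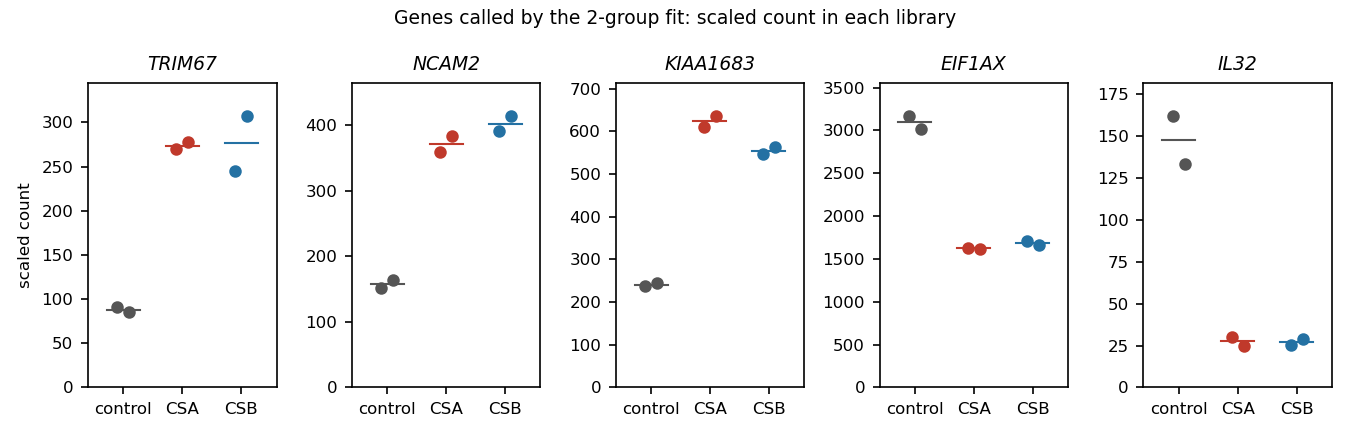
Scaled count (vertical axis, from 0) of the 5 genes called by the 2-group fit, 1 panel a gene, with 1 point per library and a bar at the mean of each pair. The call itself requires the 4 knockdown points to lie on one side of both controls and favours knockdowns that lie close together. EIF1AX, for example, is at 1614 to 1708 against 3012 and 3172.

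The promoter windows of EIF1AX and IL32 are shown because these genes fell in all 4 knockdown libraries with almost the same value in each pair. Windows run from 250 bases before to 50 after the RefSeq start (GRCh38.p14), on the gene's own strand. The motifs were chosen after the sequences had been looked at, were searched on both strands, and a match is a description only. In EIF1AX, at chrX:20141789-20142088 on the minus strand, capitals mark GC boxes (GGGCGG or its complement). Such boxes are in 44.9% of the 35116 RefSeq promoter windows, and in 68.8% of the tested genes with a window (first window of each). In IL32, at chr16:3065153-3065452 on the plus strand, capitals mark a cyclic AMP response element (TGACGTCA, in 1.85% of all windows) and a site of the NF-kB form (in 11.3%). Among the tested genes with a window, 3.14% and 13.0% held these motifs.
EIF1AX: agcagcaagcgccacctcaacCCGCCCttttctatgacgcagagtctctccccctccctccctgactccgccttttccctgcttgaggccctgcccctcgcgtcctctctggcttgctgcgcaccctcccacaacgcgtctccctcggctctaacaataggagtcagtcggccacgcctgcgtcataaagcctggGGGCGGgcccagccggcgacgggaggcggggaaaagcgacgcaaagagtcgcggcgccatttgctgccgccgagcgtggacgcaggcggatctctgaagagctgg
IL32: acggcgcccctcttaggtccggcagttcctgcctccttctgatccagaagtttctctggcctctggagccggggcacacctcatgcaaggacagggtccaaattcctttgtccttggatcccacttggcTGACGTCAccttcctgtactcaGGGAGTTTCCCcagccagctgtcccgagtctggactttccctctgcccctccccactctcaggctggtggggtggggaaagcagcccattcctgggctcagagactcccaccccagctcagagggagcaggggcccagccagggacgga

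By the 3-group fit, the rises that were largest in the weaker of the 2 knockdowns were those of ARPP21, PTCHD1, CA10, TRIM67, HRK, NCAM2, AJAP1, KIAA1683, LINC-PINT, XKRX, SHISA9 and CARD14. ARPP21 encodes a cyclic AMP-regulated phosphoprotein of the brain. ARPP21 was measured at 7.96 and 8.68 without knockdown, at 61.8 and 82.02 after CSA knockdown and at 34.1 and 33.8 after CSB knockdown. ARPP21 changed by 2.43 ± 0.24 in the mean of the knockdowns (limma, adjusted p = 1.46e-07), and the knockdowns differed by -1.05 ± 0.28 (CSB minus CSA, adjusted p = 0.00365). CA10, a secreted carbonic anhydrase-related protein that binds neurexins, rose in both knockdowns and further in the CSA knockdown. For CA10 the scaled counts were 23.9 and 16.4 (controls), 266 and 269.9 (CSA knockdown) and 67.2 and 80.03 (CSB knockdown). For CA10, the log2 change was 2.76 ± 0.17 (adjusted p = 2.12e-10 by limma), and the knockdowns differed by -1.85 ± 0.19 (CSB minus CSA, adjusted p = 7.02e-08). HRK encodes harakiri, a BH3-only activator of apoptosis in neurons. HRK gave 11.9 and 6.75 in the controls, against 63.95 and 88.7 with the CSA hairpin and 19.8 and 29.7 with the CSB hairpin. HRK had a mean log2 change of 2.13 ± 0.28 (3-group limma fit, adjusted p = 5.67e-06), and the knockdowns differed by -1.59 ± 0.32 (CSB minus CSA, adjusted p = 3.13e-04). In these 3 genes both knockdowns were above both controls, as a call requires, and the CSA knockdown was higher by more than the duplicate spread.

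AJAP1, an adherens junction-associated membrane protein, showed the reverse order. AJAP1 stood at 75.6 and 60.8 in the controls, 160.4 and 159 in the CSA pair and 219 and 204 in the CSB pair of libraries. AJAP1 changed by 1.43 ± 0.12 in the mean of the knockdowns (limma, adjusted p = 2.34e-08), and the knockdowns differed by 0.40 ± 0.14 (CSB minus CSA, adjusted p = 0.0236). LINC-PINT, a p53-induced long noncoding RNA, is the noncoding member of the group. Control libraries held LINC-PINT at 19.9 and 24.1, CSA knockdown libraries at 55.3 and 53.4, and CSB knockdown libraries at 63.9 and 39.6. For LINC-PINT, the log2 change was 1.22 ± 0.22 (adjusted p = 2.40e-04 by limma), with -0.11 ± 0.26 between CSB and CSA knockdown, which did not pass the test (adjusted p = 0.754). XKRX and CARD14, an XK-related membrane protein and a caspase-recruitment scaffold, differed by 1.09 ± 0.20 and 1.20 ± 0.20. XKRX was measured at 25.9 and 35.7 without knockdown, at 57.4 and 75.3 after CSA knockdown and at 62.8 and 69.3 after CSB knockdown. For CARD14 the scaled counts were 29.8 and 22.2 (controls), 50.9 and 55.3 (CSA knockdown) and 72.7 and 64.4 (CSB knockdown). Neither showed a CSB minus CSA difference that passed the test (0.00 ± 0.23 and 0.36 ± 0.23, 3-group limma fit, adjusted p = 0.993 and 0.204).

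SHISA9 and PTCHD1 rested on few control reads. SHISA9, an auxiliary subunit of AMPA-type glutamate receptors, had 1 read in the 2 controls together, 126 in the CSA knockdown and 4 in the CSB knockdown. After scaling, that was a ratio to control of 131 in the CSA knockdown (exact 95% interval 23.0 to 5196) and 3.85 in the CSB knockdown (0.381 to 190), an interval that includes 1, so a rise in the CSB knockdown was not detectable at this depth. Adding 1 before the logarithm also understates the fold of such low genes, so read ratios are given here. PTCHD1, a patched-domain membrane protein linked to intellectual disability, had 4 control reads, 151 in the CSA knockdown and 20 in the CSB knockdown. Its ratios were 39.1 (15.0 to 145) and 4.82 (1.61 to 19.4). These intervals cover counting error only.

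Among the most abundant genes that rose were EEF1A1 and EEF2, the elongation factors that bring transfer RNA to the ribosome and move it along, and the ribosomal protein genes RPL13A, RPS27 and RPL8. EEF2 gave 84294 and 83703 in the controls, against 96754 and 108656 with the CSA hairpin and 121142 and 128164 with the CSB hairpin. EEF2 had a mean log2 change of 0.43 ± 0.06 (3-group limma fit, adjusted p = 2.45e-05), and the knockdowns differed by 0.28 ± 0.07 (CSB minus CSA, adjusted p = 0.00308). EEF1A1 stood at 172763 and 173106 in the controls, 223198 and 210037 in the CSA pair and 182886 and 182288 in the CSB pair of libraries. The mean shift of EEF1A1 was 0.20 ± 0.07, adjusted p = 0.0254 in the 3-group limma fit. By knockdown it was 0.32 ± 0.08 for CSA and 0.08 ± 0.08 for CSB (adjusted p = 0.446, same fit). The mean shift did not pass with TMM or upper-quartile scaling, or with the replicate block. It also did not pass without either control or either CSB knockdown library, and the adjusted p reached 0.290.

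The falls that were largest in the weaker knockdown were those of IL32, SYT12, ACTG2, FAM46C, PCDH10, CCL2, PALMD, NHSL2, CPVL, HSPB8, LMOD1 and LPAR3. SYT12, a synaptotagmin of synaptic vesicles, fell in both knockdowns to a similar level. Control libraries held SYT12 at 87.5 and 85.8, CSA knockdown libraries at 24.9 and 13.4, and CSB knockdown libraries at 14.3 and 15.7. SYT12 changed by -2.32 ± 0.26 in the mean of the knockdowns (limma, adjusted p = 6.79e-07), with -0.27 ± 0.30 between CSB and CSA knockdown, which did not pass the test (adjusted p = 0.478). PCDH10, a protocadherin of neuronal adhesion, had nearly identical duplicates. PCDH10 was measured at 591 and 588 without knockdown, at 199 and 192 after CSA knockdown and at 133 and 138 after CSB knockdown. For PCDH10, the log2 change was -1.85 ± 0.09 (adjusted p = 8.63e-12 by limma), and the knockdowns differed by -0.53 ± 0.10 (CSB minus CSA, adjusted p = 1.61e-04). CCL2, the chemokine that attracts monocytes, also fell. For CCL2 the scaled counts were 257 and 275 (controls), 65.03 and 64.8 (CSA knockdown) and 88.1 and 90.8 (CSB knockdown). CCL2 had a mean log2 change of -1.79 ± 0.12 (3-group limma fit, adjusted p = 1.12e-09), and the knockdowns differed by 0.46 ± 0.14 (CSB minus CSA, adjusted p = 0.0108). The knockdown libraries of all 3 genes lay far below both controls, by which the genes had been chosen.

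ACTG2, LMOD1 and PALMD encode enteric smooth muscle actin, leiomodin of smooth muscle and palmdelphin. ACTG2 gave 229.8 and 244 in the controls, against 7.59 and 9.54 with the CSA hairpin and 75.97 and 55.3 with the CSB hairpin. ACTG2 changed by -3.25 ± 0.19 in the mean of the knockdowns (limma, adjusted p = 1.25e-10), and the knockdowns differed by 2.79 ± 0.22 (CSB minus CSA, adjusted p = 8.88e-10). LMOD1 and PALMD also fell further in the CSA knockdown. LMOD1 stood at 126 and 128 in the controls, 29.3 and 38.1 in the CSA pair and 66.1 and 59.4 in the CSB pair of libraries. Control libraries held PALMD at 92.5 and 125, CSA knockdown libraries at 20.6 and 24.8, and CSB knockdown libraries at 33.03 and 58.6. Their mean log2 changes were -1.45 ± 0.17 and -1.74 ± 0.22. FAM46C, a poly(A) polymerase, changed by -1.90 ± 0.23. FAM46C was measured at 112 and 88.7 without knockdown, at 24.9 and 21.9 after CSA knockdown and at 22.02 and 37.95 after CSB knockdown.

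NHSL2, CPVL and LPAR3, the last a receptor for lysophosphatidic acid, fell in both knockdowns. For NHSL2 the scaled counts were 265 and 256 (controls), 103 and 104 (CSA knockdown) and 112 and 114 (CSB knockdown). CPVL gave 56.7 and 75.2 in the controls, against 27.1 and 28.6 with the CSA hairpin and 29.7 and 30.5 with the CSB hairpin. LPAR3 stood at 90.5 and 95.5 in the controls, 48.8 and 44.8 in the CSA pair and 44.04 and 45.4 in the CSB pair of libraries. In none of these 3 did the CSB minus CSA difference pass the test, at 0.13 ± 0.13, 0.11 ± 0.24 and -0.06 ± 0.19. The CSA pair lay below the CSB pair in NHSL2 and CPVL, and the pairs overlapped in LPAR3.

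Among the most abundant genes that fell were ACTB and ACTG1, the cytoplasmic actins, MT-ND5, a mitochondrially encoded subunit of complex I, PTMA (prothymosin alpha) and HNRNPA2B1, an RNA-binding protein. Control libraries held ACTB at 60412 and 61621, CSA knockdown libraries at 38422 and 38782, and CSB knockdown libraries at 45448 and 46085. For ACTB, the log2 change was -0.54 ± 0.05 (adjusted p = 8.51e-08 by limma), and the knockdowns differed by 0.25 ± 0.06 (CSB minus CSA, adjusted p = 0.00155). ACTG1 was measured at 40062 and 40292 without knockdown, at 28675 and 27410.2 after CSA knockdown and at 37607 and 38785 after CSB knockdown. The mean change of ACTG1 was -0.30 ± 0.05, with -0.52 ± 0.06 in the CSA and -0.07 ± 0.06 in the CSB knockdown. MT-ND5 changed by -0.27 ± 0.05, PTMA by -0.20 ± 0.05 and HNRNPA2B1 by -0.19 ± 0.06. By knockdown, PTMA changed by -0.34 ± 0.06 for CSA and -0.06 ± 0.06 for CSB. The PTMA call was lost without either control, at an adjusted p of up to 0.136. The HNRNPA2B1 call was lost without either control or CSB knockdown replicate 2, and with looser filters, at up to 0.173.

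**Figure D2:**
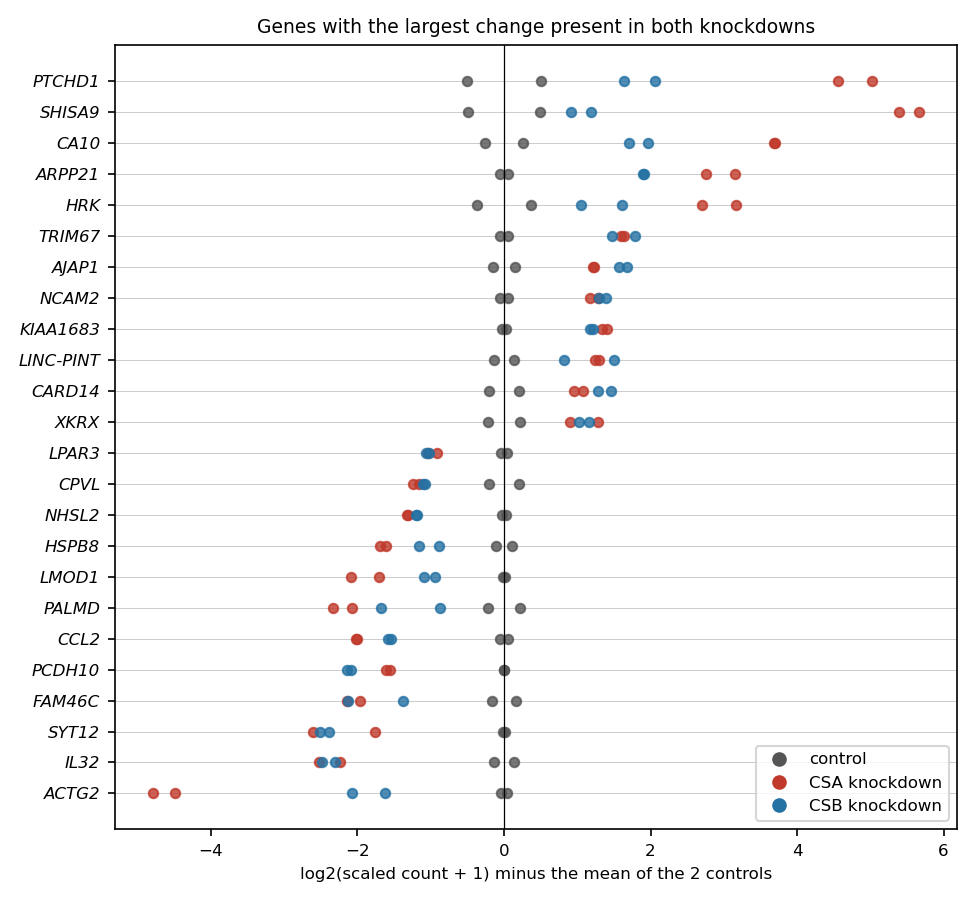
Difference of log2(scaled count + 1) from the mean of the 2 controls (horizontal axis) for the 12 genes that rose and the 12 that fell with the largest change in the weaker knockdown, 1 point per library. Knockdown points of the genes that rose lie between 0.83 and 5.66, and those of the genes that fell between -4.79 and -0.87, with CSA and CSB points together in some genes and apart in PTCHD1, SHISA9 and ACTG2.

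Gene groups were described by how many tested members rose or fell, read against 11.9% and 8.89% of all tested genes. There were 42 lists. None of their members was called by the 2-group fit, so every count below is from the 3-group fit. Members are named for the 17 lists with at least 10 tested members and a called share of at least 2 times that of all genes in 1 direction, a limit set after the counts were seen. Among the 42 lists, counts of 5 or fewer in 1 direction changed by up to 4 when 1 library was left out.

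Genes of DNA replication and S phase were the list with the largest share lower. Of 40 tested, 28 fell and none rose, with a median log2 change of -0.29 (-0.33 in the CSA and -0.28 in the CSB knockdown). Without each library in turn, 25 to 29 fell, and with other scalings 30 or 31 did. The list includes the MCM helicase, GINS, primase, the clamp loader RFC and nucleotide synthesis enzymes. POLE2, a subunit of the leading-strand polymerase epsilon, fell. For POLE2 the scaled counts were 330.2 and 325 (controls), 229 and 198 (CSA knockdown) and 246 and 206 (CSB knockdown). POLE2 had a mean log2 change of -0.58 ± 0.10 (3-group limma fit, adjusted p = 9.06e-05), with 0.08 ± 0.11 between CSB and CSA knockdown, which did not pass the test (adjusted p = 0.59). PCNA, the sliding clamp of replication, which is also on the repair list, fell less. PCNA gave 4699.7 and 4561 in the controls, against 3540 and 3580.1 with the CSA hairpin and 3978 and 3685 with the CSB hairpin. PCNA changed by -0.33 ± 0.05 in the mean of the knockdowns (limma, adjusted p = 1.44e-05), with 0.11 ± 0.05 between CSB and CSA knockdown, which did not pass the test (adjusted p = 0.111).

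MCM2, MCM3, MCM4, MCM5 and MCM6, subunits of the replicative helicase, fell, while MCM7 had -0.28 ± 0.06 in the CSA and 0.06 ± 0.06 in the CSB knockdown and was not called. MCM6 stood at 3397 and 3398 in the controls, 2447 and 2336 in the CSA pair and 1977 and 1968 in the CSB pair of libraries. The mean change of MCM6 was -0.65 ± 0.05. Members that did not pass included E2F1 (-0.04 ± 0.07 and -0.00 ± 0.07), the factor that drives many of these genes, and the cyclin CCNE1, which was split at 0.51 ± 0.08 in the CSA and -0.31 ± 0.08 in the CSB knockdown. The MCM members and E2F1 were named after their values were seen.

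The MCM6 promoter is shown as an example of the list. Of the 34 S-phase genes with a RefSeq window, 15 (44.1%) held an E2F-type motif (TTTNGCGC). The share was 2.82% among all tested genes with a window and 1.79% among all windows. The MCM6 window lies at chr2:135876394-135876693 on the minus strand. Capitals mark E2F-type matches, 4 in all, which overlap in pairs on opposite strands, and CCAAT boxes (CCAAT or its complement), which 34.6% of all windows hold.
MCM6: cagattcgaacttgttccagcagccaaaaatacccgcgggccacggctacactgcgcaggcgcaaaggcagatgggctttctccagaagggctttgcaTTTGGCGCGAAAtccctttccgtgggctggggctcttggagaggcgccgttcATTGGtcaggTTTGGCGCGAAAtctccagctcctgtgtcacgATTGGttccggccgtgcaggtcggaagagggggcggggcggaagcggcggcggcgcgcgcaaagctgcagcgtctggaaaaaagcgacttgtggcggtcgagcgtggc

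Of the genes of G2/M phase and mitosis, 13 of 38 fell and none rose, but a further 17 were split with the CSB knockdown higher. The list median was -0.55 in the CSA knockdown and 0.03 in the CSB knockdown. AURKB, the kinase of the chromosomal passenger complex, and HMMR, a spindle-associated hyaluronan receptor, were the members that fell most in the weaker knockdown. Control libraries held AURKB at 1417 and 1503, CSA knockdown libraries at 956 and 927, and CSB knockdown libraries at 1166 and 1099.8. For AURKB, the log2 change was -0.50 ± 0.05 (adjusted p = 5.17e-07 by limma), and the knockdowns differed by 0.27 ± 0.06 (CSB minus CSA, adjusted p = 0.00128). HMMR was measured at 1059 and 1065 without knockdown, at 934 and 773 after CSA knockdown and at 754 and 801 after CSB knockdown. HMMR had a mean log2 change of -0.39 ± 0.07 (3-group limma fit, adjusted p = 1.45e-04), with -0.13 ± 0.08 between CSB and CSA knockdown, which did not pass the test (adjusted p = 0.181).

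Cytosolic chaperones fell in 19 of 32 and rose in 2, with a median of -0.28, and 16 to 24 fell when each library was left out. The members that fell included 7 subunits of the chaperonin that folds actin and tubulin (CCT2, CCT3, CCT4, CCT5, CCT7, CCT8 and TCP1). HSPB8, a small heat shock protein that acts with BAG3 in selective autophagy, fell most in the weaker knockdown. For HSPB8 the scaled counts were 96.5 and 113 (controls), 33.6 and 31.5 (CSA knockdown) and 46.2 and 56.1 (CSB knockdown). HSPB8 changed by -1.34 ± 0.18 in the mean of the knockdowns (limma, adjusted p = 6.43e-06), and the knockdowns differed by 0.63 ± 0.20 (CSB minus CSA, adjusted p = 0.014). HSPA2, a member of the HSP70 family, was next. HSPA2 gave 374 and 340.5 in the controls, against 145 and 160.2 with the CSA hairpin and 225 and 230.2 with the CSB hairpin. For HSPA2, the log2 change was -0.93 ± 0.09 (adjusted p = 1.53e-07 by limma), and the knockdowns differed by 0.57 ± 0.11 (CSB minus CSA, adjusted p = 1.37e-04). DNAJB6 rose by 0.21 ± 0.04 and HSPA4L by 0.19 ± 0.07. The HSPA4L call was lost in 10 of 17 alternatives, at an adjusted p of up to 0.269.

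Aminoacyl-tRNA synthetases, which load amino acids onto transfer RNA, fell in 12 of 22 and rose in 1. The median was -0.21, and 9 to 14 fell when each library was left out. FARSB (phenylalanine) and YARS (tyrosine) led. FARSB stood at 899 and 923 in the controls, 626 and 586 in the CSA pair and 536 and 543 in the CSB pair of libraries. FARSB had a mean log2 change of -0.67 ± 0.06 (3-group limma fit, adjusted p = 5.22e-08), with -0.17 ± 0.07 between CSB and CSA knockdown, which did not pass the test (adjusted p = 0.0574). Control libraries held YARS at 2195 and 2255, CSA knockdown libraries at 1573 and 1606, and CSB knockdown libraries at 1336 and 1402. YARS changed by -0.59 ± 0.05 in the mean of the knockdowns (limma, adjusted p = 1.37e-08), and the knockdowns differed by -0.22 ± 0.06 (CSB minus CSA, adjusted p = 0.00321). QARS (glutamine) was the member that rose. QARS was measured at 4625 and 4694 without knockdown, at 6000.5 and 6134 after CSA knockdown and at 5688 and 5930.2 after CSB knockdown. For QARS, the log2 change was 0.35 ± 0.04 (adjusted p = 3.26e-06 by limma), with -0.06 ± 0.05 between CSB and CSA knockdown, which did not pass the test (adjusted p = 0.324). None of the 22 was split between the knockdowns.

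Targets of ATF4, the factor of the amino acid response, and genes of serine synthesis fell in 16 of 35, and none rose. The median was -0.30, and 16 to 18 fell when each library was left out. PHGDH and PSAT1, the first enzymes of serine synthesis, were the members that fell most in the weaker knockdown. For PHGDH the scaled counts were 3918 and 3805 (controls), 2172 and 2429.9 (CSA knockdown) and 2459.6 and 2542 (CSB knockdown). PHGDH had a mean log2 change of -0.69 ± 0.05 (3-group limma fit, adjusted p = 2.61e-09), with 0.12 ± 0.06 between CSB and CSA knockdown, which did not pass the test (adjusted p = 0.0895). PSAT1 gave 1317 and 1479.7 in the controls, against 943 and 826 with the CSA hairpin and 632 and 599.8 with the CSB hairpin. PSAT1 changed by -0.92 ± 0.07 in the mean of the knockdowns (limma, adjusted p = 1.69e-09), and the knockdowns differed by -0.52 ± 0.08 (CSB minus CSA, adjusted p = 6.56e-06). ASNS, asparagine synthetase, a much-studied target of ATF4, changed by -0.66 ± 0.05 and was named after its values were seen. ASNS stood at 2307 and 2305 in the controls, 1364 and 1211 in the CSA pair and 1712 and 1624 in the CSB pair of libraries. Its window is shown because 6 of the 28 genes of this list with a window (21.4%) held the motif TGATGNAA. This motif, of the C/EBP-ATF response element, was in 1.66% of all tested genes with a window and in 3.62% of all windows. The ASNS window lies at chr7:97872359-97872658 on the minus strand, and capitals mark the match.
ASNS: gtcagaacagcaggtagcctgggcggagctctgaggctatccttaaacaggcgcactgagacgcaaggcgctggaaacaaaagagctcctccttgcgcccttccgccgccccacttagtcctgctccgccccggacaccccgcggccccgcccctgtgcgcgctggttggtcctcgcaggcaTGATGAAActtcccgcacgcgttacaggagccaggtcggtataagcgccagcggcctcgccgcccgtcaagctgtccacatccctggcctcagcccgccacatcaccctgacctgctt

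Metabolic lists fell in part. Cholesterol and fatty acid synthesis had 14 of 33 lower and 1 higher, with a median of -0.04 in the CSA and -0.39 in the CSB knockdown. FDFT1, squalene synthase, fell, and SREBF1, a transcription factor of this pathway, rose. Control libraries held FDFT1 at 2459.7 and 2515, CSA knockdown libraries at 1994 and 1819.6, and CSB knockdown libraries at 1736 and 1668. For FDFT1, the log2 change was -0.47 ± 0.05 (adjusted p = 5.11e-07 by limma), and the knockdowns differed by -0.16 ± 0.06 (CSB minus CSA, adjusted p = 0.0256). SREBF1 was measured at 1339 and 1298 without knockdown, at 1779.8 and 1937 after CSA knockdown and at 1469 and 1506 after CSB knockdown. SREBF1 had a mean log2 change of 0.33 ± 0.05 (3-group limma fit, adjusted p = 4.10e-05), and the knockdowns differed by -0.32 ± 0.06 (CSB minus CSA, adjusted p = 1.32e-04). Both differed in size between the knockdowns.

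Glycolysis and hypoxia genes fell in 12 of 34 and rose in 3, of which 1 was left without control replicate 1 and 0 without control replicate 2. ADM (adrenomedullin, a hypoxia-induced peptide) and PKM (pyruvate kinase) fell most in the weaker knockdown. For ADM the scaled counts were 496 and 478 (controls), 260.1 and 313 (CSA knockdown) and 281 and 256 (CSB knockdown). ADM changed by -0.82 ± 0.09 in the mean of the knockdowns (limma, adjusted p = 3.86e-07), with -0.09 ± 0.10 between CSB and CSA knockdown, which did not pass the test (adjusted p = 0.486). PKM gave 21107 and 20735 in the controls, against 15714 and 16228 with the CSA hairpin and 13986 and 14346 with the CSB hairpin. For PKM, the log2 change was -0.48 ± 0.05 (adjusted p = 8.88e-08 by limma), and the knockdowns differed by -0.17 ± 0.05 (CSB minus CSA, adjusted p = 0.00926). PFKL and VEGFA rose by 0.20 ± 0.06 and 0.15 ± 0.05 in the mean. They were not called in 5 and 7 of 17 alternatives, including without either control, at adjusted p values of up to 0.144 and 0.138. By knockdown, VEGFA changed by 0.09 ± 0.05 for CSA and 0.21 ± 0.05 for CSB.

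Antioxidant genes fell in 13 of 37 and none rose. ME1 (malic enzyme, a source of NADPH) and GSTM3 (a glutathione transferase) led. ME1 stood at 477 and 449 in the controls, 313 and 303 in the CSA pair and 341 and 346 in the CSB pair of libraries. ME1 had a mean log2 change of -0.51 ± 0.07 (3-group limma fit, adjusted p = 2.29e-05), with 0.16 ± 0.09 between CSB and CSA knockdown, which did not pass the test (adjusted p = 0.146). Control libraries held GSTM3 at 809.6 and 866, CSA knockdown libraries at 603 and 614, and CSB knockdown libraries at 628 and 642. GSTM3 changed by -0.43 ± 0.06 in the mean of the knockdowns (limma, adjusted p = 1.42e-05), with 0.06 ± 0.07 between CSB and CSA knockdown, which did not pass the test (adjusted p = 0.502). Endoplasmic reticulum folding genes fell in 11 of 28 and rose in 2. DNAJC3, a co-chaperone, and CHAC1, a glutathione-degrading enzyme that is also on the ATF4 list, changed by -0.66 ± 0.08 and -0.57 ± 0.13. SYVN1, the ubiquitin ligase of endoplasmic reticulum-associated degradation, rose by 0.31 ± 0.05 and CRELD2 by 0.17 ± 0.06. The CRELD2 call was lost in 10 of 17 alternatives, at an adjusted p of up to 0.258.

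Nuclear genes of oxidative phosphorylation fell in 10 of 50 and rose in 2. That count fell to 5 without control replicate 2 and rose to 15 without CSA knockdown replicate 2. COX6A1 and ATP5G3, subunits of complex IV and of the ATP synthase, changed by -0.62 ± 0.12 and -0.34 ± 0.06. COX7C, another complex IV subunit, went the other way. COX7C was measured at 3824 and 4127 without knockdown, at 6351 and 7171 after CSA knockdown and at 6161 and 5527 after CSB knockdown. For COX7C, the log2 change was 0.66 ± 0.06 (adjusted p = 1.70e-08 by limma), and the knockdowns differed by -0.21 ± 0.06 (CSB minus CSA, adjusted p = 0.00968). NDUFA10 rose by 0.17 ± 0.05 in the mean, with 0.28 ± 0.05 in the CSA and 0.07 ± 0.05 in the CSB knockdown. It was not called in 6 of 17 alternatives (adjusted p up to 0.112).

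Cytosolic ribosomal protein genes were the list with the largest share higher. Of 49 tested, 30 rose and 1 fell, with a median log2 change of 0.17 (0.15 in the CSA and 0.17 in the CSB knockdown). The changes were small, and the count depended on which library was left out and on the scaling. The number that rose was 1 without control replicate 1, 13 without control replicate 2 and 16 without CSB knockdown replicate 1. With the other scalings 14 to 20 rose, and the median stayed at 0.14 to 0.15. Many of these genes have near-identical pseudogene copies, which makes their counts uncertain. For RPS27 the scaled counts were 60002 and 64288 (controls), 70937 and 97356 (CSA knockdown) and 83081 and 72592 (CSB knockdown). RPS27 had a mean log2 change of 0.37 ± 0.09 (3-group limma fit, adjusted p = 0.0025), with -0.10 ± 0.10 between CSB and CSA knockdown, which did not pass the test (adjusted p = 0.453). RPL37 gave 28501 and 30726 in the controls, against 31038 and 39633 with the CSA hairpin and 40976 and 36469 with the CSB hairpin. RPL37 changed by 0.32 ± 0.07 in the mean of the knockdowns (limma, adjusted p = 0.00215), with 0.14 ± 0.08 between CSB and CSA knockdown, which did not pass the test (adjusted p = 0.182). RPL13A and RPL8 changed by 0.25 ± 0.06 and 0.20 ± 0.06. Without control replicate 1 none of RPS27, RPL37, RPL13A and RPL8 passed. RPS23 was the member that fell. RPS23 stood at 1281 and 1288 in the controls, 1107 and 1173 in the CSA pair and 978 and 1012 in the CSB pair of libraries. For RPS23, the log2 change was -0.27 ± 0.05 (adjusted p = 4.95e-04 by limma), and the knockdowns differed by -0.20 ± 0.06 (CSB minus CSA, adjusted p = 0.0118).

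RNA polymerase I and ribosome biogenesis, in contrast, fell in 14 of 44, and none rose. When each library was left out, 10 to 17 fell, and 4 rose without CSA knockdown replicate 1. NCL (nucleolin) and NOP56, a component of box C/D ribonucleoproteins, fell in both knockdowns. Control libraries held NCL at 13871 and 14009.6, CSA knockdown libraries at 11463 and 11673, and CSB knockdown libraries at 11394 and 11668. NCL had a mean log2 change of -0.27 ± 0.04 (3-group limma fit, adjusted p = 6.67e-05), with -0.00 ± 0.05 between CSB and CSA knockdown, which did not pass the test (adjusted p = 0.95). NOP56 was measured at 3335 and 3478 without knockdown, at 2742 and 2645 after CSA knockdown and at 2848 and 2804 after CSB knockdown. NOP56 changed by -0.30 ± 0.05 in the mean of the knockdowns (limma, adjusted p = 2.88e-05), with 0.07 ± 0.05 between CSB and CSA knockdown, which did not pass the test (adjusted p = 0.293). The list median was -0.09.

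**Figure D3:**
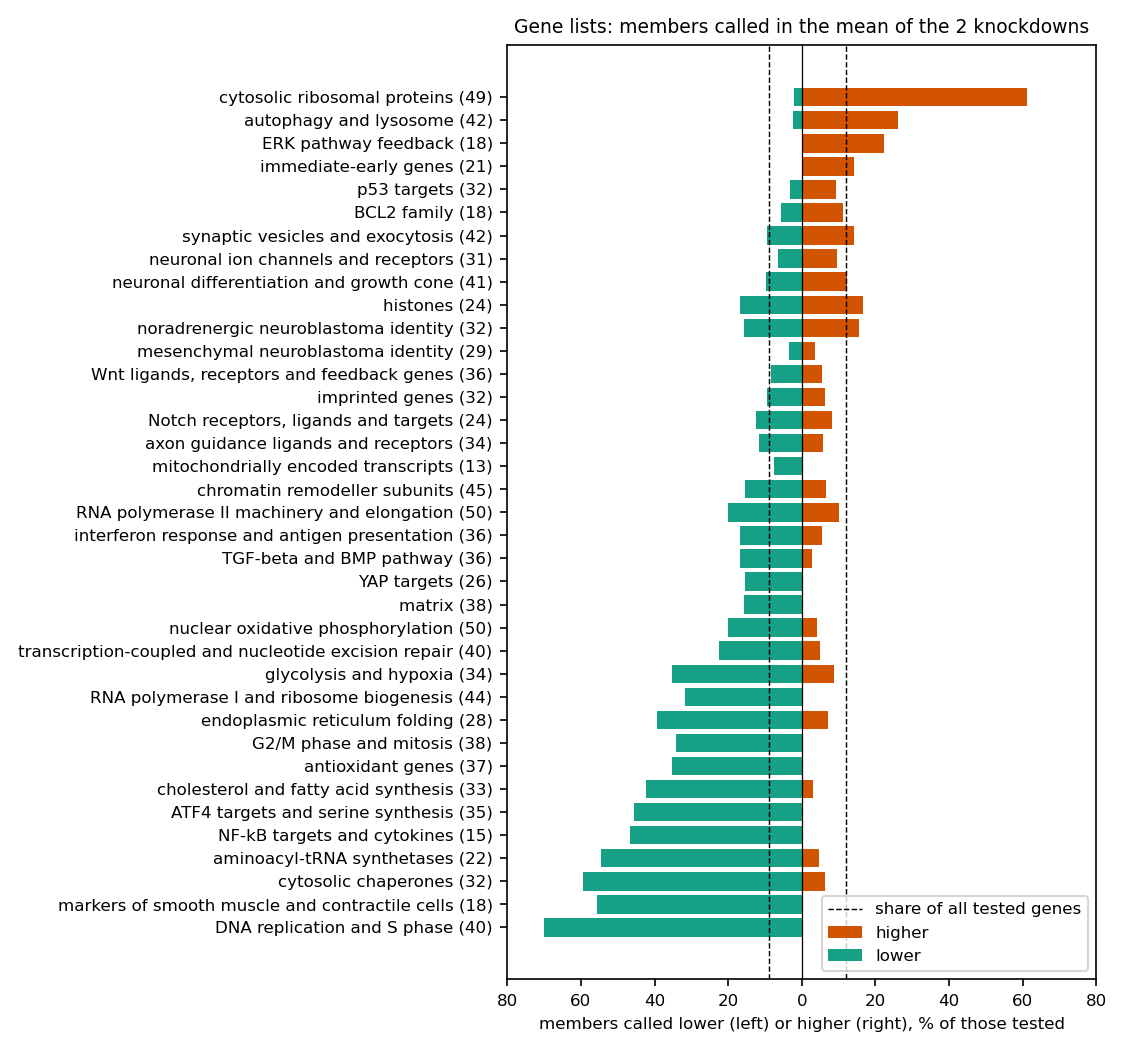
Share of tested members called higher (right) or lower (left) by the 3-group fit for each list with at least 10 tested members, the number tested in parentheses; dashed lines mark the shares of all tested genes, 11.9% and 8.89%. S phase (28 of 40 lower) and ribosomal proteins (30 of 49 higher) have the longest bars.

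Transcription and repair lists had calls in both directions. In transcription-coupled and nucleotide excision repair, 9 of the 40 genes tested fell and 2 rose, and one of the 9 was the targeted ERCC8 itself. When each library was left out, 6 to 10 fell and 2 to 4 rose. UVSSA, the partner of CSA and CSB that stabilises CSB at the stalled polymerase, rose. For UVSSA the scaled counts were 862 and 872 (controls), 1096 and 1192 (CSA knockdown) and 1193 and 1209 (CSB knockdown). For UVSSA, the log2 change was 0.43 ± 0.05 (adjusted p = 3.77e-06 by limma), with 0.07 ± 0.06 between CSB and CSA knockdown, which did not pass the test (adjusted p = 0.376). STK19, which acts at the same step, rose by 0.32 ± 0.08. STK19 gave 402 and 398 in the controls, against 485 and 553 with the CSA hairpin and 454 and 512 with the CSB hairpin. GTF2H1, a subunit of TFIIH, fell, with a change of -0.25 ± 0.06. GTF2H1 stood at 890.2 and 868 in the controls, 757 and 705 in the CSA pair and 769.6 and 734 in the CSB pair of libraries. Its adjusted p was 0.0665 without control replicate 1.

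RNA polymerase II machinery and elongation genes fell in 10 of 50 and rose in 5. Without control replicate 1, 5 fell and 1 rose, and without control replicate 2, 7 fell and 3 rose. POLR2L, a small subunit shared by all 3 nuclear polymerases, fell mostly in the CSB knockdown. Control libraries held POLR2L at 1356 and 1395, CSA knockdown libraries at 1046 and 1312, and CSB knockdown libraries at 871 and 713. POLR2L had a mean log2 change of -0.52 ± 0.08 (3-group limma fit, adjusted p = 3.50e-05), and the knockdowns differed by -0.57 ± 0.09 (CSB minus CSA, adjusted p = 2.16e-05). ELL, an elongation factor, changed by -0.25 ± 0.09, and was not called in 7 of 17 alternatives (adjusted p up to 0.182). TAF10 and GTF2F1 rose by 0.20 ± 0.06 and 0.20 ± 0.05. Without control replicate 2 the adjusted p of TAF10 missed the threshold (up to 0.227 over its alternatives), and without control replicate 1 that of GTF2F1 was 0.0570.

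Autophagy and lysosome genes rose in 11 of 42 and fell in 1, with a median of 0.04 that came to between -0.00 and 0.01 with other scalings, where 9 rose and 5 fell. A further 13 were split with the CSB knockdown higher, and the list median was -0.03 in the CSA and 0.17 in the CSB knockdown. GABARAPL1, an ATG8-family protein of the autophagosome, and GAA, the lysosomal glucosidase, rose. GABARAPL1 was measured at 343 and 333 without knockdown, at 563 and 659 after CSA knockdown and at 443 and 409 after CSB knockdown. GABARAPL1 changed by 0.59 ± 0.08 in the mean of the knockdowns (limma, adjusted p = 5.32e-06), and the knockdowns differed by -0.52 ± 0.09 (CSB minus CSA, adjusted p = 5.29e-05). For GAA the scaled counts were 3507 and 3635 (controls), 3964 and 4418 (CSA knockdown) and 5388 and 5358 (CSB knockdown). For GAA, the log2 change was 0.41 ± 0.05 (adjusted p = 1.58e-06 by limma), and the knockdowns differed by 0.36 ± 0.06 (CSB minus CSA, adjusted p = 1.56e-05). BECN1, a subunit of the lipid kinase that starts autophagosomes, fell. BECN1 gave 629.6 and 648 in the controls, against 422 and 433 with the CSA hairpin and 509.8 and 565 with the CSB hairpin. BECN1 had a mean log2 change of -0.42 ± 0.07 (3-group limma fit, adjusted p = 7.49e-05), and the knockdowns differed by 0.33 ± 0.08 (CSB minus CSA, adjusted p = 0.00147).

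NF-kB targets and cytokines fell in 7 of 15 tested, and none rose. Without control replicate 2, 4 fell, and without control replicate 1, 6 fell and 1 rose. CCL2 is given above. TRAF1, a signalling adaptor of TNF receptors, was the other member that the rule on named genes gave, since TNFRSF9 and ICAM1, which fell more in the weaker knockdown, had no group mean of 50. TRAF1 stood at 52.7 and 69.4 in the controls, 10.8 and 14.3 in the CSA pair and 37.4 and 38.8 in the CSB pair of libraries. TRAF1 changed by -1.42 ± 0.23 in the mean of the knockdowns (limma, adjusted p = 8.04e-05), and the knockdowns differed by 1.54 ± 0.27 (CSB minus CSA, adjusted p = 6.92e-05). Of this list's 24 genes, 9 did not reach the filter or were not listed.

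Markers of smooth muscle and contractile cells fell in 10 of 18, and none rose, in every leave-one-out fit as well. Their median was -0.80 in the CSA and -0.15 in the CSB knockdown, and 7 were split with the CSB knockdown higher. Besides ACTG2 and LMOD1, the members called were ACTA2, TAGLN, TAGLN2, CNN1, CNN3, MYLK, CALD1 and TPM4, genes of the actin cytoskeleton that many cultured lines express. Since ACTA2 and ACTG2 are near-identical in sequence, reads may have been shared between them. The summed scaled count of the list was 67951 to 68693 in the controls, 47365 to 47547 in the CSA and 63771 to 65447 in the CSB knockdown, and DES, the muscle intermediate filament, had no reads in any library. In bulk libraries, fewer cells of a type and less RNA per cell cannot be told apart.

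**Figure D4:**
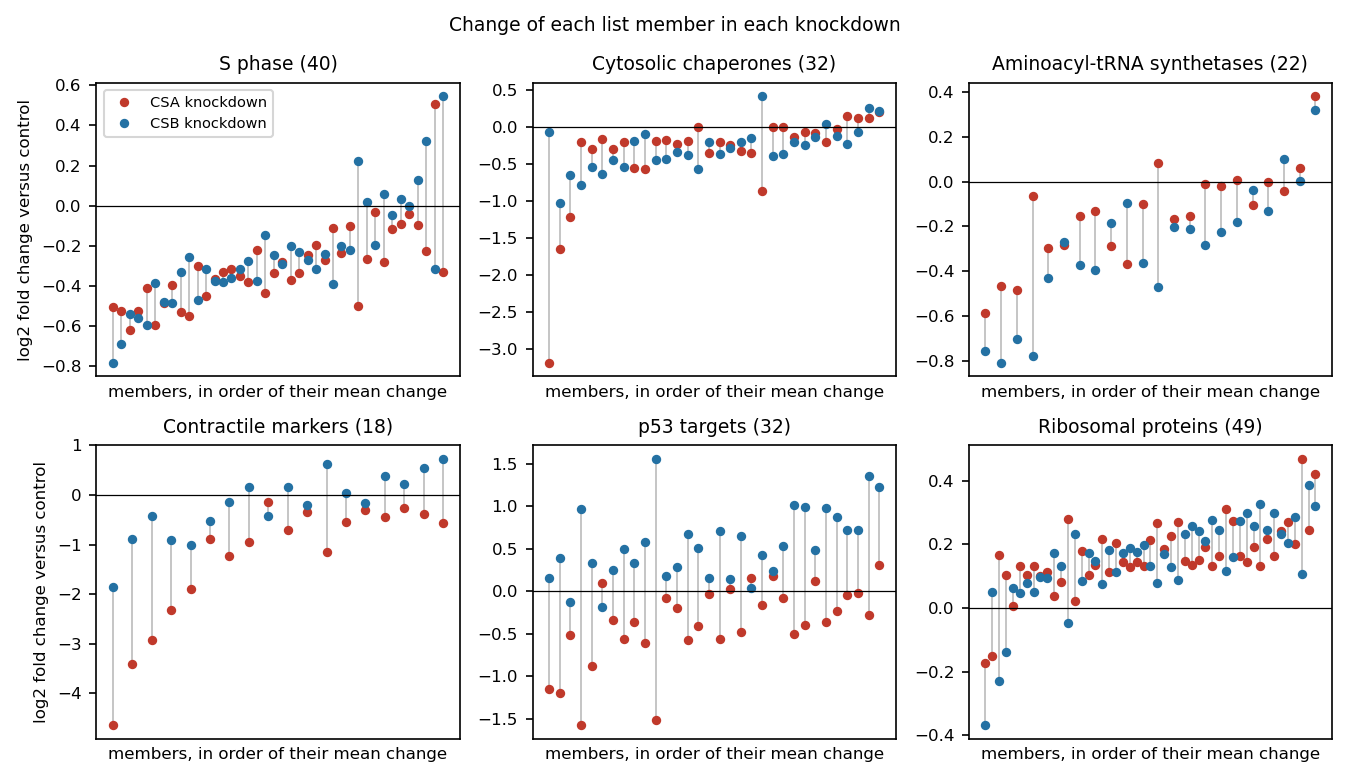
Log2 fold change versus control (vertical axis; the scale differs between panels) of each tested member of 6 lists in the CSA and the CSB knockdown, joined by a line and ordered by their mean. Both points lie below 0 for most S-phase genes, chaperones and synthetases, and above 0 for most ribosomal protein genes, whereas p53 targets lie mostly below 0 in the CSA knockdown (26 of 32) and above 0 in the CSB knockdown (30 of 32).

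Markers of other cell types were measured beside these. Schwann cell and neural crest markers had no call among 9 tested, and their summed scaled count was 1061 to 1064 in the controls, 761 to 817 in the CSA and 2900 to 3020 in the CSB knockdown, with SOX10, CDH19, FOXD3, PAX3 and FABP7 at 0 throughout. Fibroblast markers had 1 higher and 1 lower of 9, a sum of 14005 to 14310 in the controls, 9436 to 9820 in the CSA and 16830 to 17598 in the CSB knockdown, and POSTN at 0. Immune markers (3 tested, none called) summed to 40.8 to 42.4 in the controls, 34.7 to 36.2 in the CSA and 52.8 to 53.9 in the CSB knockdown, with CD3E and CD68 among those at 0. Endothelial markers (3 tested, 2 lower) summed to 56.9 to 68.6, 26.01 to 30.5 and 48.4 to 51.2 in the same order, with PECAM1 at 0. Epithelial markers (5 tested, 1 higher and 1 lower) summed to 310.3 to 315, 320.4 to 323 and 288 to 299, with KRT5 and KRT14 at 0. The part of other cell types in the gene lists was not tested beyond these sums.

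Several lists had many members that were split between the knockdowns. Of 32 p53 targets tested, 20 lay below the controls in the CSA and above them in the CSB knockdown, 3 rose (BTG2, RRM2B and TIGAR) and 1 fell (PMAIP1). The same split held for 21 of 38 matrix genes, 20 of 36 genes of the TGF-beta and BMP pathway, 16 of 29 mesenchymal identity genes, 13 of 21 immediate-early genes and 12 of 26 YAP targets, against 13.4% of all tested genes. The 3-group calls were 0 higher and 6 lower for matrix, 1 and 6 for TGF-beta and BMP, 1 and 1 for mesenchymal identity, 3 and 0 for immediate-early genes, and 0 and 4 for YAP targets. The opposite split, CSA above and CSB below, held for 18 of 42 synaptic vesicle genes, 16 of 31 neuronal ion channels and receptors and 15 of 41 neuronal differentiation genes, against 7.84% of all. Their 3-group calls were 6 higher and 4 lower, 3 and 2, and 5 and 4.

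The requirement of one side left out 2077 genes with an adjusted p below 0.05 in the 3-group limma fit, ERCC6 among them. The genes that were split most are given as a contrast to the genes called. Control libraries held NEUROG2 at 17.9 and 27.97, CSA knockdown libraries at 643 and 684, and CSB knockdown libraries at 0 and 0.825. NEUROG2, a proneural transcription factor, was 28.9 times the control in the CSA knockdown (exact 95% interval of the read ratio 21.6 to 39.5) and had 1 read in the CSB knockdown, a ratio of 0.0205 (0.000508 to 0.120). CCDC68, a centrosomal protein, showed the same order with ratios of 8.05 (5.78 to 11.5) and 0.0241 (0.000595 to 0.142). CTGF was measured at 20.9 and 27.01 without knockdown, at 7.59 and 4.77 after CSA knockdown and at 113 and 107 after CSB knockdown. For PPP1R1B the scaled counts were 27.8 and 28.9 (controls), 5.42 and 11.4 (CSA knockdown) and 107 and 99.8 (CSB knockdown). CTGF, a matricellular target of YAP, and PPP1R1B, the phosphatase inhibitor DARPP-32, were split the other way. In all 4 the mean of the knockdowns did not pass the test against control, at 0.36 ± 0.28, -0.48 ± 0.33, 0.18 ± 0.26 and 0.05 ± 0.26.

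The remaining lists did not reach the limit for named members. Noradrenergic identity had 5 higher and 5 lower of 32, axon guidance 2 and 4 of 34, ERK pathway feedback 4 and 0 of 18, interferon response and antigen presentation 2 and 6 of 36, Notch 2 and 3 of 24 and Wnt 2 and 3 of 36. Mitochondrially encoded transcripts had 0 and 1 of 13, histones 4 and 4 of 24, imprinted genes 2 and 3 of 32, the BCL2 family 2 and 1 of 18 and chromatin remodeller subunits 3 and 7 of 45 (7 higher without CSA knockdown replicate 1, 4 lower without control replicate 1).

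Gene span, the distance from start to end of the gene in the deposited tables, was described because CSA and CSB act on transcribed DNA. With the tested genes in 5 equal bins from the shortest to the longest span, 6.82%, 13.9%, 14.1%, 13.5% and 11.1% rose, and 3.74%, 7.64%, 10.1%, 11.6% and 11.4% fell. The bin of shortest genes also had the lowest level, with a median scaled count of 31.7 against 345 to 598 in the others. At low levels a gene can pass the filter through a knockdown group alone, and the effect of this on the bins was not tested. Median log2 changes ran from 0.07 in the shortest to 0.01 in the longest bin. Among protein-coding genes alone, in 5 bins of their own, 13.4%, 14.7%, 13.2%, 13.3% and 11.2% rose and 8.79%, 10.7%, 11.8%, 13.0% and 11.6% fell. The shortest of these bins did not have the lowest share of rises, but it had the lowest share of falls. It also had the lowest level, with a median scaled count of 469 against 620 to 745 in the others.

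Protein-coding genes made up most of the tested set, and 13.2% of 13879 rose and 11.2% fell. Of 1356 antisense genes 8.04% rose and 1.40% fell, and of 1139 long intergenic noncoding RNAs 7.55% rose and 2.46% fell. Among 252 transcribed unprocessed pseudogenes, 17.1% rose and 1.59% fell. The median scaled count was 639 for protein-coding genes, but 24.8, 24.5 and 91.1 for these 3 types. Since the sources used here give no strand setting, reads of antisense genes cannot be told apart from those of their partners.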

How the data were processed

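RNA from 6 SH-SY5Y libraries was sequenced after TruSeq preparation, per the labels' protocols. HISAT2 2.0.4, FastQC and hg38 are named per the submitters' processing notes. The sources used here do not give how reads were counted, with which strand setting and annotation, or how counts were normalized. The deposited column is headed FPKM per the file headers, but 100% of the values are whole multiples of 1 step per library (tolerance 0.01 of a step). The deposited signal is therefore reads per gene divided by 1 size factor, called the scaled count. Genes absent from a library were taken as 0, and tables were joined on Ensembl identifiers.

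log2(scaled count + 1) was fitted with limma 3.58.1 (R 4.3.3). The 2-group fit had 4 residual degrees of freedom, and the 3-group fit had 3. The 2-group fit was the planned main test and the 3-group fit a second design planned beside it. Since the first called 5 genes, the second was used to name genes and count list members, and its own alternatives were added after seeing the data. Alternatives were the pseudocount (0.5, 5), the filter (1, 50 or none), 3 scalings, edgeR 4.0.16 and DESeq2 1.42.0 on recovered reads, a replicate block and leaving out each library. The 2-group fit was tried on simulated reads, and the 3-group fit was not.

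Named genes were the targeted genes and, among those called with a group mean of at least 50 and no clone name, the 12 higher and 12 lower with the largest smaller change of the 2 knockdowns, and the 5 most abundant each way. Up to 2 higher and 2 lower per list and 4 split genes were added, as were the genes called by the 2-group fit. A few genes are not reported here. Members and lists were chosen with earlier results of these data known. Promoter windows are from RefSeq (GRCh38.p14), matched by symbol, for 34 of 40 S-phase and 28 of 35 ATF4-list genes.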

Additional observations from a re-analysis of the deposited data

Results flagged for a closer look

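In 40 of the 84 named genes the CSB and the CSA knockdown differed from each other at an adjusted p below 0.05 (3-group limma fit). That is 47.6%, beside 48.5% of all tested genes. The named set holds the targeted genes, genes chosen because they were split, and genes ranked by their smaller change. Its share therefore cannot be read against that of all genes. Each value here is the log2 difference CSB minus CSA. The targeted genes differed by 1.73 (ERCC8) and -1.14 (ERCC6). The genes that were split between the knockdowns differed by -8.94 (NEUROG2), -6.88 (CCDC68), 3.98 (CTGF) and 3.54 (PPP1R1B).

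Of the genes that rose, 10 were higher in the CSA knockdown: SHISA9 at -4.48, PTCHD1 at -2.94, CA10 at -1.85, HRK at -1.59, ARPP21 at -1.05, GABARAPL1 at -0.52, SREBF1 at -0.32, EEF1A1 at -0.25, COX7C at -0.21 and NDUFA10 at -0.21. The CSB knockdown was higher in AJAP1 (0.40), GAA (0.36) and EEF2 (0.28).

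Of the genes that fell, 13 were lower in the CSA knockdown: ACTG2 at 2.79, TRAF1 at 1.54, PALMD at 0.93, LMOD1 at 0.89, HSPB8 at 0.63, HSPA2 at 0.57, CCL2 at 0.46, CHAC1 at 0.46, ACTG1 at 0.45, BECN1 at 0.33, PTMA at 0.27, AURKB at 0.27 and ACTB at 0.25. The CSB knockdown was lower in 8: POLR2L at -0.57, PCDH10 at -0.53, PSAT1 at -0.52, YARS at -0.22, RPS23 at -0.20, PKM at -0.17, FDFT1 at -0.16 and MT-ND5 at -0.15.

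Among the 4 knockdown libraries, 1 value stood apart from the other 3 by Dixon's criterion in 2 of 84 genes. RPL13A was 84001 in CSB knockdown replicate 1, and UVSSA was 1096 in CSA knockdown replicate 1. Chance gives about 1 in 20 groups.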

How the results depend on the processing

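The 2-group fit called 3 genes higher and 2 lower. The higher count became 188 with DESeq2 on recovered reads and 2178 with the 3-group fit. The lower count became 4 with a mean of at least 50, 7 with TMM scaling, 7 with upper-quartile scaling, 13 with edgeR, 287 with DESeq2 and 1629 with the 3-group fit. With the replicate block it called 0 higher and 0 lower, and 1801 genes had an unadjusted p below 0.05. Without each library in turn it called 0 to 0 genes higher and 0 to 0 lower, with 944 to 2900 genes at an unadjusted p below 0.05. The replicate numbers do not pair the libraries: the correlations of same-numbered deviations were -0.04, -0.03 and -0.03. DESeq2 gave 1217 higher and 1503 lower calls for the mean of the knockdowns, and the 3-group fit with the replicate block gave 2114 and 1595. Leaving out each library gave 1556 to 2850 higher and 1198 to 2004 lower. Genes with all 4 libraries on one side numbered 3487 to 4491 higher and 2523 to 3230 lower without each library in turn, which loosens the requirement. Of the 84 named genes, 67 had the same call in all 17 alternatives of the 3-group fit, SHISA9 had it in the 16 that gave an adjusted p (DESeq2 gave none), 16 lost it in at least 1 and none reversed. The 67 include ERCC6, NEUROG2, CCDC68, CTGF and PPP1R1B, which were not called, so for them the same call means no call. Counts of small changes moved with single libraries. Ribosomal protein genes that rose numbered 1 without control replicate 1, 13 without control replicate 2 and 16 without CSB knockdown replicate 1. The cause of these shifts was not tested.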

Other observations

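Some list members outside the rule for named genes also moved in all 4 knockdown libraries, and are given here as values. They were chosen after their values were seen. The list on ERK pathway feedback, which holds feedback inhibitors and target genes of the pathway, had 4 of 18 higher (DUSP4, SPRY2, SPRY4 and SPRED2), against 11.9% of all tested genes, and none lower, with 1 lower without CSA knockdown replicate 1. SPRY2, an inhibitor of receptor tyrosine kinase signalling, changed by 0.80 ± 0.06, and DUSP4, a phosphatase of ERK, by 0.63 ± 0.04. SPRY2 gave 662 and 708 in the controls, against 1494 and 1489 with the CSA hairpin and 967 and 929.8 with the CSB hairpin. DUSP4 stood at 2928 and 2988 in the controls, 4238 and 4331 in the CSA pair and 4856 and 4893 in the CSB pair of libraries. The adjusted p values by the 3-group limma fit were 1.32e-09 and 1.32e-09.

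PRPH, peripherin, an intermediate filament of peripheral neurons, rose from a low level. Control libraries held PRPH at 8.95 and 3.86, CSA knockdown libraries at 18.4 and 15.3, and CSB knockdown libraries at 18.7 and 17.3. TNFRSF9, a costimulatory receptor on the NF-kB list, fell. TNFRSF9 was measured at 48.7 and 47.3 without knockdown, at 2.17 and 6.68 after CSA knockdown and at 6.61 and 4.13 after CSB knockdown. The mean log2 changes were 1.40 ± 0.37 and -3.14 ± 0.41, with adjusted p values of 0.00539 and 4.96e-06 by the same fit.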
